A study of Mus musculus with 25 samples.

Results

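The expression of 7 genes that link the hypothalamus to the pituitary was compared across 4 comparisons of maternal diet in mouse offspring: the hypophysiotropic hormone genes Crh, Trh, Ghrh, Sst and Gnrh1 and the dopamine neuron genes Th and Slc6a3. They were chosen by name for their role, with earlier results of these data known. All 7 occur among the 24421 gene symbols of each of the authors' 4 deposited comparison tables. In 25 samples, the hypothalamus of wild-type C57BL/6J mice aged 3 months had been profiled by stranded poly(A) RNA sequencing. Dams ate a hypercaloric diet (HCD, high in sucrose and with 52% fat) or regular chow (RD), starting 1 month before mating and lasting through lactation, and the offspring went onto HCD or RD at weaning. The HCD-weaned comparisons set offspring of HCD dams against offspring of RD dams that both ate HCD after weaning, and the RD-weaned comparisons do the same for offspring that both ate RD. Each was made within 1 sex, with 3 samples in each group except the RD-weaned males of RD dams, of which the labels list 4. The labels number the samples of a group but name no animal or litter for them, so p-values measure only the spread between these samples.

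Small neurons of the hypothalamus release these hormones into the portal blood of the pituitary stalk, where they start or stop the release of pituitary hormones. Corticotropin-releasing hormone (Crh) drives the stress axis, thyrotropin-releasing hormone (Trh) the thyroid axis, growth hormone-releasing hormone (Ghrh) growth hormone, and gonadotropin-releasing hormone (Gnrh1) the reproductive axis. Somatostatin (Sst) holds back growth hormone and thyrotropin, and dopamine from neurons of the arcuate nucleus, made through tyrosine hydroxylase (Th) and taken back up by the dopamine transporter (Slc6a3), holds back prolactin.

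Values are those of the authors' 4 deposited tables: a mean normalized count over the libraries of a table, a log2 fold change with its standard error (SE), a p and an adjusted p. Genes with an adjusted p under 0.05 are termed called. Positive fold changes are taken to mean a higher level with an HCD dam. The labels call the RD-dam group the control for HCD-weaned offspring only, so for the RD-weaned tables this reading rests on the order of the groups, and if it is wrong all signs of that table turn together. Single-library columns are numbered in a way that matches no label, so values of single samples are not used here. In whole tissue, fewer cells of a type and less RNA per cell cannot be told apart.

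None of the 7 genes was called in any of the 4 comparisons, by DESeq as the authors ran it. Of 26 pairs of gene and comparison with an adjusted p, 0 had one under 0.05 and 6 had an unadjusted p under 0.05. Those 6 were Crh and Trh in HCD-weaned males, Trh and Sst in HCD-weaned females, and Trh and Ghrh in RD-weaned females. Among all genes tested, 0.163% were called in HCD-weaned males and 1.52% in HCD-weaned females. The RD-weaned tables had 0.0851% called in males and 0.346% in females. The shares with an unadjusted p under 0.05 were 8.14%, 13.3%, 4.3% and 6.16% in the same order, against 2 of 7, 2 of 7, 0 of 5 and 2 of 7 members. Trh had the lowest adjusted p of all, 0.0791 in HCD-weaned males, and Sst the next, 0.0984 in HCD-weaned females, as the authors' deposited tables list them.

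The promoter windows of Trh, Sst and Th are shown, since Trh had the most negative and Sst the most positive value among the 7 genes and Th makes the inhibitory transmitter of the set. Each runs from 250 bases before to 50 bases after the RefSeq start site on GRCm38.p6 (the build the submitters' notes call mm10), and all lie on the minus strand. The search was for the full cyclic AMP response element, TGACGTCA, which reads the same on both strands, and its half-site TGACG, on either strand (CGTCA on the other), and matches are in capitals. The full element contains the half-site on both strands, so those matches overlap. Trh is at chr6:92244601-92244900, Sst at chr16:23890795-23891094 and Th at chr7:142899946-142900245.
Trh: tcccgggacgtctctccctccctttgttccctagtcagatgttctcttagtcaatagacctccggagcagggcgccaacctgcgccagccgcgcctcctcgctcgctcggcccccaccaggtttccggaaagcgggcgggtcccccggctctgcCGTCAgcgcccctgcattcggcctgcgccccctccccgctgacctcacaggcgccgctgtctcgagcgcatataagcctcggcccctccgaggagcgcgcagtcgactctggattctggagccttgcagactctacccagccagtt
Sst: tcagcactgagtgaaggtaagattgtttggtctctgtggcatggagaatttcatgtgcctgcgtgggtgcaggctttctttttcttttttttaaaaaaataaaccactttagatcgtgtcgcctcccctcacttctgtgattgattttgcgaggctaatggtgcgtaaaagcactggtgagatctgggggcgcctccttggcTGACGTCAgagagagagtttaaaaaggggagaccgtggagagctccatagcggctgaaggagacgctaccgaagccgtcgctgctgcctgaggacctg
Th: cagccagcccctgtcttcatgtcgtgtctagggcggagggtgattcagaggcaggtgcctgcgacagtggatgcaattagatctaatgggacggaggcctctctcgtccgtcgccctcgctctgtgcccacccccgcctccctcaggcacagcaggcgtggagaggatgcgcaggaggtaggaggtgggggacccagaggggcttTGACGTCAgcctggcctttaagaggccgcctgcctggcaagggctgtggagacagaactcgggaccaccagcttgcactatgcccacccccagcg
Sst and Th each hold the full element, beginning 48 bases before the start site in Sst and 45 bases before it in Th. The Trh window holds 1 half-site, on the other strand, beginning 96 bases before the start. Of 32851 RefSeq windows of this length, 1.79% hold the full element and 20.8% a half-site. Neither Ghrh window nor the Slc6a3 window holds the full element. A TATA box (TATAAA, either strand) and the binding element of NR4A factors (AAAGGTCA, either strand) were searched too, and 13.6% and 1.51% of all windows hold them. Among the windows of the members, the TATA box letters occur in 1 of the Ghrh windows, beginning 31 bases before its start, and the other motif in none. A match describes letters only. Of the genes with the full element, Sst had a positive fold change in 3 of the 4 comparisons and Th in 1 of 4, going by the authors' deposited tables. With the RD-weaned tables turned, the sign of both genes in those tables would turn with them.

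Sst stood far above the other genes in every table when the mean normalized count, scaled so that each table sums to 1000000 (CPM below), was divided by exon length in kilobases. On that scale its level was 311 in males and 360 in females weaned onto HCD, and 241 in males and 471 in females weaned onto RD. Slc6a3 ranged from 5.93 to 24.6, Th from 6.65 to 15.9 and Trh from 7.17 to 20.2, and their order differed between tables. Crh (1.82 to 4.26), Ghrh (1.19 to 3.03) and Gnrh1 (0.928 to 2.78) were the 3 lowest in each table. The tables were normalized separately, so levels set side by side across them carry no test. The lowest mean normalized count of any member was 16.1, for Gnrh1 in HCD-weaned males, above the mean of 10 under which the authors' deposited tables give no adjusted p.

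**Figure D1:**
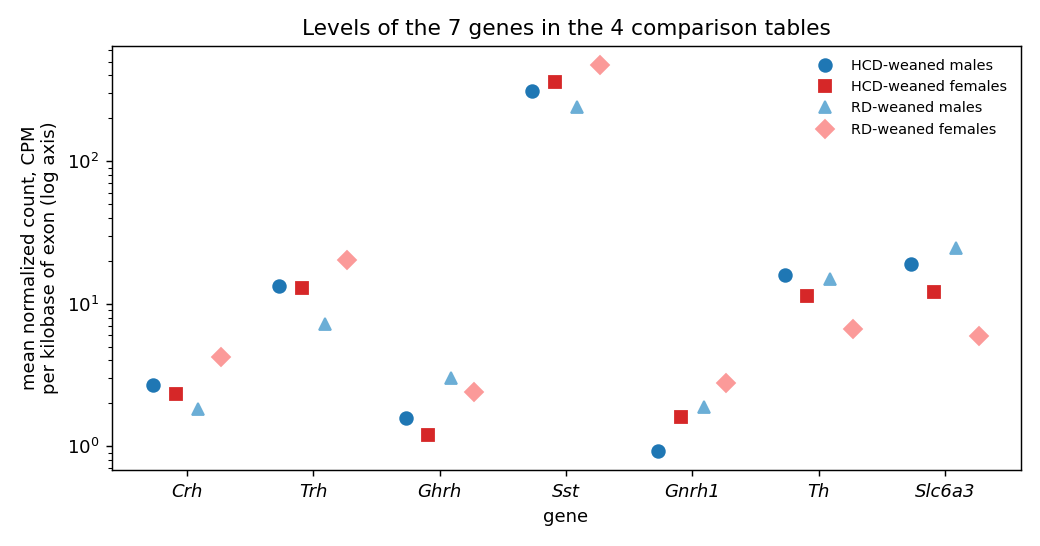
Mean normalized count, in CPM per kilobase of exon (vertical, log axis) of the 7 genes (horizontal) in the 4 comparison tables (symbols). Each point is 1 table's mean over both groups, with no error given; Sst lies between 241 and 471, above all other genes.

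Trh, on chromosome 6 from 92242061 to 92244650 (GENCODE M21 gene models on GRCm38), was the only member with a negative value in all 4 tables as their signs are read here. With the RD-weaned tables turned, its values there would be above 0. The authors' deposited tables list a mean normalized count of 495 for HCD-weaned males, 406 for HCD-weaned females, 153 for RD-weaned males and 659 for RD-weaned females. For HCD-weaned males the authors' deposited table gives -1.17 ± 0.31 on the log2 scale (SE; adjusted p = 0.0791), a 2.25-fold difference with a 95% interval of -1.77 to -0.57. By p it ranked 28 of 15384 genes in that table, just past the 25 genes called. Across 6 alternative treatments of that table the adjusted p of Trh ran from 0.00635 to 0.62. The lowest came from removing the trend of the Wald statistic with exon length, which brought Trh past the threshold at a log2 value of -1.41. That trend was strong in HCD-weaned males (Spearman rho = -0.489 over genes, which do not count as independent replicates), shorter genes having the higher statistics, and the exons of Trh total 1384 bases. The authors' deposited tables also put Trh below 0 for HCD-weaned females, at -0.84 ± 0.40 (SE; adjusted p = 0.33), and for RD-weaned females, at -0.54 ± 0.26 (SE; adjusted p = 0.764). Both 95% intervals lay below 0, at -1.64 to -0.05 and -1.06 to -0.02, before any adjustment over genes. RD-weaned males were near 0, the authors' deposited table giving -0.11 ± 0.41 (SE; adjusted p = 1.00). The effect on Trh in HCD-weaned males minus that in RD-weaned males was -1.06 from the authors' deposited values (95% interval -2.07 to -0.05; unadjusted p = 0.0398; adjusted p = 0.978), so a difference between the postnatal diets did not pass.

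Crh lies on chromosome 3 from 19693401 to 19695396 and had mean normalized counts between 37.0 and 133 across the authors' deposited tables. Its value for HCD-weaned males in the authors' deposited table was -0.97 ± 0.30 (SE; adjusted p = 0.266), a 1.95-fold difference with a 95% interval of -1.56 to -0.37. That was rank 84 of 15384 by p, and over 5 alternatives its adjusted p ran from 0.0526 to 0.994. Crh was on the other side of 0 for HCD-weaned females, where the authors' deposited table gives 0.16 ± 0.40 (SE; adjusted p = 0.965), and with the length trend removed it was at -0.09. The male effect minus the female effect was -1.13 from the authors' deposited values (95% interval -2.12 to -0.14; unadjusted p = 0.0258; adjusted p = 1.00), so a difference between the sexes did not pass either. For RD-weaned offspring the authors' deposited tables give -0.28 ± 0.38 (SE; adjusted p = 1.00) in males and -0.49 ± 0.29 (SE; adjusted p = 0.931) in females.

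Markers of hypothalamic neurons went the same way as Trh and Crh in HCD-weaned males. All 10 of a list of such markers (Nkx2-1, Sim1, Otp, Fezf1, Hcrt, Pmch, Oxt, Avp, Agrp and Pomc) were negative there, with 5 called. Their median log2 fold change was -1.29, against a median of -0.01 over all genes tested. The list was chosen with earlier results of these data known, so this contrast is a description only. The tested markers had a median of -0.43 with 6 of 7 negative in HCD-weaned females. The median was -0.18 with 4 of 4 negative for RD-weaned males and -0.30 with 9 of 9 negative for RD-weaned females, and 0 were called in each of these 3 tables. Summed over the list the level in CPM was 233 in males and 257 in females weaned onto HCD, and 154 in males and 455 in females weaned onto RD. A large part of each sum came from a single gene, and single markers did not all follow it. Avp was also lowest in RD-weaned males (3.68 CPM) but highest in HCD-weaned males (69.2 CPM). Trh and Crh had their lowest and highest levels in the same tables as the sum, with 9.92 and 2.40 CPM in RD-weaned males and 28.0 and 5.62 in RD-weaned females. Ghrh did not, being highest in RD-weaned males (2.03 CPM). Gnrh1 was highest in RD-weaned females (1.78 CPM) but lowest in HCD-weaned males (0.596 CPM). The part of these markers in the values of Trh and Crh was not tested.

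Ghrh, on chromosome 2 from 157329497 to 157347506, was scarce, with mean normalized counts between 18.1 and 37.6 across the authors' deposited tables. On HCD the authors' deposited tables give -0.39 ± 0.32 (SE; adjusted p = 0.776) for males and 0.03 ± 0.35 (SE; adjusted p = 0.994) for females. On RD the authors' deposited tables give -0.53 ± 0.36 (SE; adjusted p = 1.00) for males and -0.49 ± 0.24 (SE; adjusted p = 0.767) for females. Only in RD-weaned females did the 95% interval, -0.96 to -0.02, lie on 1 side of 0. The small positive value in HCD-weaned females turned to -0.01 when fold changes were centred on their median and to -0.18 with the length trend removed.

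Gnrh1, on chromosome 14 from 67745181 to 67749439, is made by a few scattered neurons of the preoptic area, and its mean normalized count lay between 16.1 and 42.0 across the authors' deposited tables. Weaned onto HCD, males had -0.40 ± 0.29 (SE; adjusted p = 0.731) and females 0.02 ± 0.36 (SE; adjusted p = 0.998), by the authors' deposited tables. Females weaned onto RD had -0.14 ± 0.14 (SE; adjusted p = 1.00), by the authors' deposited table. The authors' deposited table of RD-weaned males gives -0.41 ± 0.31 (SE) and no p for Gnrh1, as for 1554 genes of sufficient mean there, so this value was not tested. None of these intervals excluded 0, and the value in HCD-weaned females turned to -0.02 when centred and to -0.20 with the length trend removed.

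Sst, the inhibitory hormone gene on chromosome 16 from 23889573 to 23890958, had its largest value in HCD-weaned females. Mean normalized counts of Sst in the authors' deposited tables were 6036 and 5907 for males and females weaned onto HCD and 2672 and 8008 for those weaned onto RD. For HCD-weaned females the authors' deposited table lists 0.87 ± 0.29 (SE; adjusted p = 0.0984), a 1.83-fold difference with a 95% interval of 0.30 to 1.45. By p it ranked 447 of 15043 genes, of which 229 were called, and over 6 alternatives its adjusted p ran from 0.0788 to 0.34. Shorter genes had the higher statistics in HCD-weaned females as well (Spearman rho = -0.401 over genes), the exons of Sst total 721 bases, and the highest of these p belongs to the value with the length trend removed, 0.69. Lower values stand in the authors' deposited tables for HCD-weaned males (0.27 ± 0.25, SE; adjusted p = 0.794) and RD-weaned females (0.46 ± 0.27, SE; adjusted p = 0.931), and a negative one for RD-weaned males (-0.22 ± 0.40, SE; adjusted p = 1.00). The intervals of these 3 covered 0, and with the length trend removed the value in HCD-weaned males was 0.05 and that in RD-weaned males -0.05. Interneurons of the cortex and striatum also make Sst. Of 6 markers of telencephalic interneurons (Pvalb, Vip, Lhx6, Npy, Reln and Nos1), 4 were positive in HCD-weaned females (median 0.18, 0 called), and all 7 striatum markers were positive there (median 0.21, 0 called). Cortex and hippocampus markers were positive in 4 of 6 in HCD-weaned females (median 0.24) and in 6 of 6 in RD-weaned females (median 0.97), with 0 called. In HCD-weaned males all 7 striatum markers were negative (median -0.65) and 4 of 6 interneuron markers were (median -0.27), with 0 called. Cortex and hippocampus markers were positive in 3 of 6 there (median -0.0030). They were positive in 5 of 6 in RD-weaned males (median 0.13), where Sst was negative as signs are read here. Interneuron markers were positive in RD-weaned males in 3 of 5 tested (median 0.08) and striatum markers in 4 of 7 (median 0.01), with 0 called. RD-weaned females had 3 of 5 tested interneuron markers and all 7 striatum markers positive (medians 0.21 and 0.40), with 0 called. The part of these markers in the values of Sst was not tested.

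**Figure D2:**
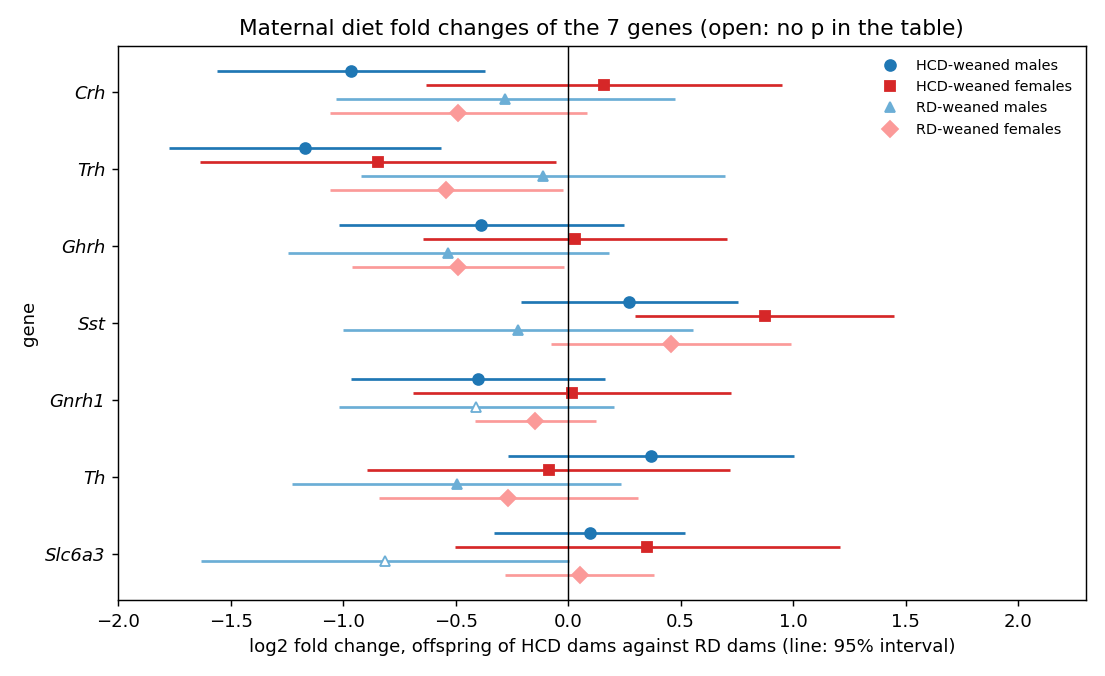
Log2 fold change between offspring of HCD and RD dams (horizontal) of the 7 genes (vertical) in the 4 comparisons (symbols), with 95% intervals computed from the authors' standard errors; open symbols have no p in the table. As signs are read here Trh lies below 0 in all 4, from -1.17 to -0.11, which for the RD-weaned tables would turn with their direction, and no gene has an adjusted p under 0.05.

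The dopamine genes Th (chromosome 7, 142892752 to 142931128) and Slc6a3 (chromosome 13, 73536747 to 73578672) had no value near the threshold. Mean normalized counts ran from 371 to 1012 for Th and from 483 to 1763 for Slc6a3 across the authors' deposited tables. Th on HCD was at 0.37 ± 0.32 (SE; adjusted p = 0.786) for males and -0.09 ± 0.41 (SE; adjusted p = 0.983) for females, by the authors' deposited tables. Th on RD was at -0.50 ± 0.37 (SE; adjusted p = 1.00) for males and -0.27 ± 0.29 (SE; adjusted p = 1.00) for females, by the authors' deposited tables. All 4 intervals of Th covered 0. With the length trend removed Th was at 0.19 in males and -0.25 in females weaned onto HCD. For Slc6a3 the authors' deposited tables list 0.10 ± 0.22 (SE; adjusted p = 0.93) for HCD-weaned males, 0.35 ± 0.44 (SE; adjusted p = 0.874) for HCD-weaned females and 0.05 ± 0.17 (SE; adjusted p = 1.00) for RD-weaned females. The largest value of the pair, -0.81 ± 0.42 (SE) for Slc6a3 in RD-weaned males, has a Wald score but no p in the authors' deposited table. It was therefore not tested, and whether a single library drives it was not examined here. The effect on Th in HCD-weaned males minus that in RD-weaned males was 0.86 from the authors' deposited values (95% interval -0.10 to 1.83; unadjusted p = 0.0802; adjusted p = 0.978).

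Slc6a3 was also the member whose level differed most between tables, from 20.5 CPM in RD-weaned females to 85.0 in RD-weaned males, a ratio of 4.15. HCD-weaned males, at 65.4, and HCD-weaned females, at 41.7, lay between. Dopamine neurons of the arcuate nucleus carry Th and some Slc6a3, and those of the midbrain, which lies just behind the hypothalamus, carry both abundantly. The level in CPM was summed over 7 markers of midbrain dopamine neurons (Pitx3, En1, Lmx1b, Foxa2, Chrna6, Slc10a4 and Ret). It was 79.7 for RD-weaned males, 56.5 for HCD-weaned males, 41.3 for HCD-weaned females and 29.8 for RD-weaned females, the same order as Slc6a3. The largest part of each sum came from a single gene, Ret. Pitx3, En1, Slc10a4 and Ret each had this order, and the other markers did not. Chrna6 and Foxa2 were highest in HCD-weaned males, and Lmx1b was lowest in HCD-weaned females. Of the tested markers 4 of 4 were negative in RD-weaned males (median -0.49), where Th and Slc6a3 had their most negative values, all of which would be positive if that table were turned. In HCD-weaned males 6 of 6 were positive (median 0.24) and in HCD-weaned females 6 of 6 (median 0.21). RD-weaned females had 2 of 4 positive (median -0.13). No midbrain marker was called in any table. Factor genes listed here for dopamine neurons of the olfactory bulb and zona incerta went the other way from Th in HCD-weaned males, Dlx1 at -0.76, Dlx2 at -1.01, Dlx5 at -0.84 and Lhx8 at -0.74, with none of them called. Whether each of them marks such neurons was not tested. In HCD-weaned females, where Th was at -0.09, they were at 0.09, 0.15, 0.11 and 0.17. In RD-weaned males Dlx1, Dlx2 and Dlx5 lay between 0.08 and 0.35 with none called, and Lhx8 was at 1.75 with no p, so it was not tested there. In RD-weaned females these genes lay between -0.69 and 0.10, with none called. The part of both kinds of marker in the values of Th and Slc6a3 was not tested. Per kilobase of exon, the level of Slc6a3 relative to that of Th was 1.19 in males and 1.06 in females weaned onto HCD, and 1.64 in males and 0.891 in females weaned onto RD.

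**Figure D3:**
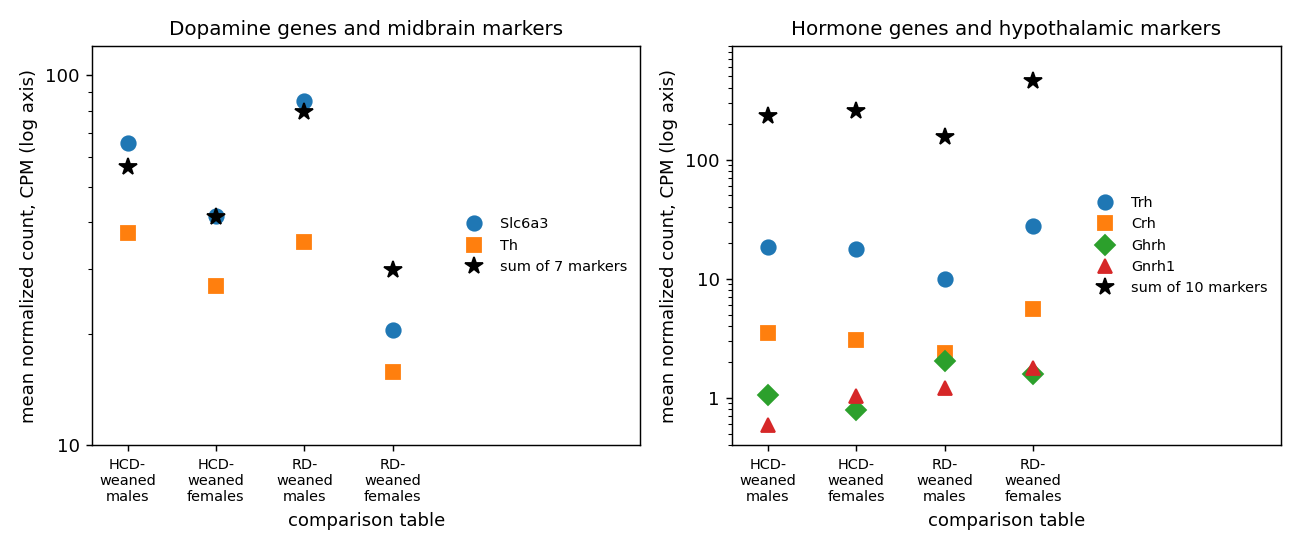
Mean normalized count, in CPM (vertical, log axis) in the 4 comparison tables (horizontal). Left: Slc6a3, Th and the sum of 7 midbrain dopamine neuron markers, which is highest, like Slc6a3, in RD-weaned males (79.7 and 85.0). Right: Trh, Crh, Ghrh, Gnrh1 and the sum of 10 hypothalamic neuron markers, which is highest, like Trh, Crh and Gnrh1 but not Ghrh, in RD-weaned females (455).

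The wider pathways of these hormones were described through 6 lists, and only 2 of their genes were called in any comparison, both in HCD-weaned females. These were Pcsk1n, which encodes the proSAAS inhibitor of prohormone convertase 1, and Chga, which encodes the granule protein chromogranin A. The authors' deposited table lists 1.17 ± 0.23 (SE; adjusted p = 0.000534) for Pcsk1n and 1.06 ± 0.26 (SE; adjusted p = 0.0122) for Chga. They belong to the list of peptide processing and secretory granules, which had 2 higher and 0 lower of 12 tested members there and a median of 0.30, against 0.04 over all genes tested. With the length trend of that table removed they stood at 1.06 and 0.97 and were still called. The call of Pcsk1n held in all 6 alternatives, with adjusted p from 0.000425 to 0.00742. That of Chga did not hold when the Wald statistic was divided by its robust spread, its adjusted p from the authors' deposited statistics then being 0.069 (range over 6 alternatives 0.00972 to 0.069). The other tables had 0 of 12 called in this list, with medians of -0.04 (HCD-weaned males), -0.24 (RD-weaned males) and 0.0011 (RD-weaned females). By the authors' deposited tables the lowest p there belonged to Cpe, carboxypeptidase E (0.53 ± 0.25, SE, in HCD-weaned males), again Pcsk1n (-0.53 ± 0.25, SE, in RD-weaned males) and Chgb (0.53 ± 0.21, SE, in RD-weaned females), the adjusted p lying between 0.499 and 1.00.

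On the stress axis, 0 of 7 to 9 tested partners of Crh were called in any table. Avp, vasopressin, which acts with Crh on the pituitary, came nearest, with -1.50 ± 0.45 (SE; adjusted p = 0.0513) for HCD-weaned females by the authors' deposited table. It passed in 4 of 6 alternatives (adjusted p from 0.0218 to 0.175). These include the threshold of 0.10, which it passed with its adjusted p unchanged at 0.0513. At 0.05 it passed with a mean of at least 100 (0.0409), when centred (0.0483) and with the length trend removed (0.0218). Lowest by p elsewhere in the authors' deposited tables were the urocortin gene Ucn3 in HCD-weaned males (-0.87 ± 0.32, SE), the receptor gene Crhr1 in RD-weaned males (-0.63 ± 0.39, SE) and the binding protein gene Crhbp in RD-weaned females (0.61 ± 0.28, SE), the adjusted p lying between 0.422 and 1.00. The list's median was -0.28 in males and -0.18 in females weaned onto HCD, and 0.13 in males and 0.20 in females weaned onto RD.

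Of the genes around Trh, 0 of 9 to 11 tested were called in any table. On RD the authors' deposited tables list Trhde, whose product degrades the hormone, at 0.68 ± 0.24 (SE; adjusted p = 0.327) for females and the receptor gene Trhr at 0.28 ± 0.34 (SE; adjusted p = 1.00) for males. Medians lay between -0.25 and 0.08.

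Growth hormone axis genes had 0 of 8 to 11 tested members called, and medians between -0.10 and 0.13. The somatostatin receptor gene Sstr2 was lowest by p in both of the authors' deposited tables for HCD-weaned offspring, at 0.55 ± 0.29 (SE; adjusted p = 0.614) in males and -0.53 ± 0.43 (SE; adjusted p = 0.702) in females. On RD the growth factor gene Igf1 was lowest in males (-0.60 ± 0.38, SE; adjusted p = 1.00) and the receptor gene Sstr3 in females (0.42 ± 0.24, SE; adjusted p = 0.912), by the authors' deposited tables.

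The reproductive axis had 0 of 9 tested members called in HCD-weaned males, while 7 of 9 were negative (median -0.57) and 6 of 9 had an unadjusted p under 0.05, against 8.14% of all genes. Tac2, the neurokinin B gene, had the lowest p and was positive, the authors' deposited table giving 0.75 ± 0.27 (SE; adjusted p = 0.422). Which cells the RNA of Tac2 came from was not tested. Lowest in the authors' other deposited tables were its receptor gene Tacr3 for HCD-weaned females (-0.998 ± 0.43, SE; adjusted p = 0.245), the progesterone receptor gene Pgr for RD-weaned males (-0.52 ± 0.35, SE; adjusted p = 1.00) and the estrogen receptor gene Esr1 for RD-weaned females (-0.70 ± 0.29, SE; adjusted p = 0.555). Medians in these 3 were -0.12, 0.21 and -0.14, with 0 called.

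Genes of dopamine synthesis, storage, breakdown and reception had 0 of 13 to 15 tested members called and medians between -0.10 and 0.15. The receptor gene Drd1, also a striatum marker, was lowest by p in the authors' deposited table of HCD-weaned males (-0.97 ± 0.32, SE; adjusted p = 0.318). Nr4a2, a transcription factor gene of dopamine neurons, was lowest in the authors' deposited tables of HCD-weaned females (-0.80 ± 0.42, SE; adjusted p = 0.402) and RD-weaned males (-0.49 ± 0.30, SE; adjusted p = 1.00). The monoamine oxidase gene Maob was lowest in the authors' deposited table of RD-weaned females (-0.69 ± 0.22, SE; adjusted p = 0.176).

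**Figure D4:**
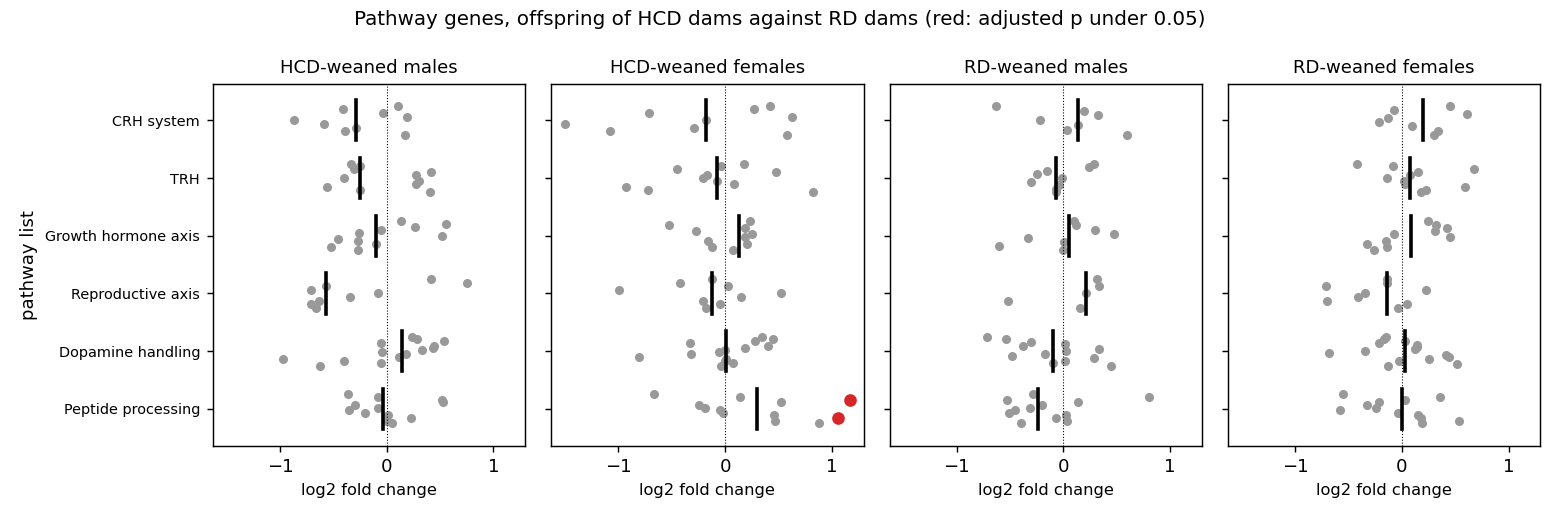
Log2 fold change (horizontal) of the tested genes of 6 pathway lists (vertical) in the 4 comparisons (panels). Each point is 1 gene, black bars are list medians and red points have an adjusted p under 0.05: these are Pcsk1n and Chga, in HCD-weaned females.

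The genes whose 4 fold changes lay nearest to those of a member were sought among 11093 genes with a mean normalized count of at least 100 in all 4 tables, for the 4 members with an unadjusted p under 0.05 in any table. For Trh these were Dgkk, a diacylglycerol kinase gene (distance 0.195 over 4 comparisons, on the log2 scale), and Peg10, a paternally expressed imprinted gene (0.264). For Crh they were Nts, the neurotensin gene (0.274), and Unc5d, a netrin receptor gene (0.329). Ghrh was nearest to Radil (0.121) and to the granule gene Scg2 (0.147), and Sst to Spns1 (0.134) and Mvp (0.146). The authors' deposited tables list Dgkk at -1.23 and -0.94 for males and females on HCD and -0.18 and -0.68 for those on RD, beside -1.17, -0.84, -0.11 and -0.54 for Trh in that order. With 4 points a short distance is a description only.

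Differences between the maternal diet effects were tested for the sexes within each postnatal diet and for the postnatal diets within each sex. No member passed in any of the 4 (adjusted p of 0.978 or more), and over all genes 0% passed between the sexes weaned onto HCD, 0.00791% between the sexes weaned onto RD, 0.00775% between the postnatal diets in males and 0.00685% in females. At an unadjusted p under 0.05 stood Crh between the sexes weaned onto HCD and Trh between the postnatal diets in males, both given above. For Sst the male effect minus the female effect was -0.60 (95% interval -1.35 to 0.15) on HCD and -0.68 (95% interval -1.62 to 0.26) on RD, so differences of more than 1 log2 unit in that direction lay within both intervals. For Ghrh between RD-weaned males and females the difference was -0.04 (95% interval -0.90 to 0.81). The deposited fold changes look shrunken toward 0, perhaps not equally, with a largest SE from 0.296 (RD-weaned females) to 0.454 (RD-weaned males). The differences of effects and their intervals, here and above, take no account of that.

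Other tissue markers were checked for the dissection as a whole. Pituitary markers (Gh, Prl, Cga, Tshb, Fshb, Lhb, Pomc and Pou1f1) summed to between 2.74 and 7.58 CPM in 3 tables, of which Pomc, also counted above as a hypothalamic marker, made up 2.41 to 5.37. They summed to 35.6 CPM in RD-weaned females, with Prl at 16.7, Pomc at 10.6 and Gh at 6.91. Prl, Pomc, Gh and Cga have a fold change but no p there. How this level spreads over single libraries was not examined here. Thalamus markers summed to between 361 and 639 CPM and had medians of 0.10 and -0.02 for males and females on HCD and 0.36 and -0.53 for those on RD, with 1 called, lower, in the last.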

How the data were processed

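RNA from hypothalamus was sequenced with a stranded mRNA kit, per the labels' protocols. The submitters' processing notes name DESeq and mm10. The aligner, the counter and the annotation were not given in the sources used here. The 4 comparison tables hold, per the file headers, a mean normalized count (a signal, never below 0), a log2 fold change with its standard error, a Wald score, and a p-value with an adjusted p, all deposited by the authors. The adjusted p equalled a Benjamini-Hochberg adjustment over the genes that have one. The fold changes deposited by the authors look shrunken toward 0: their median size in RD-weaned females was 0.05 on the log2 scale for genes with a mean under 10 and 0.15 for genes with a mean of 100 or more. Sums of the mean normalized count were 15402649 to 26951335 per table, and depth per sample is not given here.

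Counts and regularized log values of single libraries, 48 columns in 8 files, match no label by name and were not used. Each such file has 6 of them, where the labels list 7 samples of RD-weaned males. The count test, its alternatives, leaving out libraries and replicate blocks need mapped libraries and were not run.

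Intervals (95%) are the fold change ± the normal quantile times its standard error. Effects were compared by their difference over the root of the summed squared standard errors, normal distribution, Benjamini-Hochberg over all genes tested in both tables, tested on simulated data. Exon lengths and positions come from GENCODE M21. Python 3.11.15 and SciPy 1.17.1 were used. The members, 6 pathway lists and 9 marker lists were chosen with earlier results of these data known. All members are named in every table, and of each list the genes called or, with none, the gene of the lowest p. Results on some genes that this rule or the marker lists would name are not reported here. For members with an unadjusted p under 0.05 in a table, the 2 nearest genes over the 4 fold changes are named. Alternatives were other thresholds, filters, scalings, a length trend removed and turned signs. RefSeq promoter windows matched Trh, Ghrh, Sst, Th and Slc6a3.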

Additional observations from a re-analysis of the deposited data

How the results depend on the processing

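No paired analysis was possible because the library columns carry running numbers that match no label, and leaving out libraries, DESeq2, edgeR and other normalizations of the counts were not run for that reason. Of 146 values of the members under the alternatives, 138 kept their sign and their side of the threshold. Other thresholds, filters and the robust spread leave the fold change as it is. Only centring and removing the length trend could therefore turn a sign. Sizes moved by more than 1.5 times with the length trend removed in HCD-weaned males for Ghrh (-0.39 to -0.68), Gnrh1 (-0.40 to -0.66), Sst (0.27 to 0.05), Th (0.37 to 0.19) and Slc6a3 (0.10 to 0.04), in HCD-weaned females for Th (-0.09 to -0.25), in RD-weaned males for Trh (-0.11 to -0.0080), Crh (-0.28 to -0.18) and Sst (-0.22 to -0.05), and in RD-weaned females for Slc6a3 (0.05 to 0.03). The count of members called went from 0 to 1 in HCD-weaned males at an adjusted p under 0.10 (Trh) and with the length trend removed (Trh), and from 0 to 1 in HCD-weaned females at 0.10 (Sst). Signs turned in HCD-weaned females for Ghrh (-0.0081) and Gnrh1 (-0.022) when centred, and for Crh (-0.092), Ghrh (-0.18) and Gnrh1 (-0.20) with the length trend removed. Counts of all genes called moved from 25 to 16 (mean of at least 100), 3 (robust spread) and 16 (length trend removed) in HCD-weaned males, and from 229 to 450 (adjusted p under 0.10), 56 (robust spread) and 96 (79 higher and 17 lower, length trend removed) in HCD-weaned females. Centring gave 100 higher and 96 lower genes there, against 148 and 81. They moved from 11 to 23 (adjusted p under 0.10) and 74 (robust spread) in RD-weaned males, and from 52 to 90 (adjusted p under 0.10) in RD-weaned females.

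Turning the sign of 1 table makes a difference of effects a sum. On HCD the labels name the control group, so a turned table is no open reading there and its passes show no sex difference. Between the sexes on HCD 941 genes then passed in place of 0, with Trh at -2.01 and Sst at 1.15 also past the threshold (adjusted p = 0.00547 and adjusted p = 0.0463, from the authors' deposited values) and Slc6a3 at 0.45. Between the sexes on RD 14 passed in place of 1, with Crh at -0.77, Trh at -0.65 and Sst at 0.23, and without the filter on low counts 2 passed. Between the postnatal diets 4 passed in males, with Ghrh at -0.92 and Th at -0.13, and 186 in females, with Crh at -0.33, Ghrh at -0.46, Gnrh1 at -0.13 and Th at -0.35. In females 12 passed at 0.10 and 3 without the filter on low counts, in place of 1. The cause of these moves was not tested beyond what each alternative changes by construction.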
